A study of Homo sapiens with 12 samples.

Results

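Proteasome genes were followed across RNA precipitated with an antibody against Argonaute 2 (AGO2), which carries microRNAs and, with them, the transcripts they pair with, and across mock precipitates made with unspecific immunoglobulin (IgG). Genes were chosen by name, as every row with a symbol of the series PSMA to PSMG followed by a number, which gave 65 of 61782 rows for 48 genes. The question was whether the large difference of PSME2, a subunit of a proteasome activator, between the AGO2 precipitates of miR-143 and control cells was shared by genes of the core, the cap, the activators or the assembly factors. PSME2 was singled out by its value in that comparison, so its value there, and in any other ratio that uses an AGO2 precipitate, is a description.

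K562 is a human erythroleukemia cell line, and per the methods of the study all cells carried an inducible C/EBPα. The cells were transduced with pLV-miR-143 or with pLV-control. Per the same methods, transduced cells were selected with puromycin or by sorting, and stable ones were kept in puromycin. Each population was precipitated with AGO2 antibody or IgG. The labels give 12 samples in 4 groups of 3, named control_IgG, control_AGO, miR143_IgG and miR143_AGO here. The deposited values are 1 average per gene and group, in FPKM (fragments relative to transcript length and to the size of the library), so replicates cannot be compared, and no value given here has an error or a test.

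The proteasome is the protease that degrades proteins tagged with ubiquitin. Its core is a barrel of α rings, which gate the entry, and β rings, which carry the cleaving sites. A cap of ATPases and non-ATPase subunits binds and unfolds the substrate, the activators open the core without ATP, and dedicated chaperones assemble core and cap. In cells that respond to interferon-γ, inducible β subunits replace the constitutive ones, and the activator subunits PSME1 and PSME2 rise with them. The AGO values depend both on how much of a transcript is bound and on how much the cells hold, and input RNA was not analysed here. Whether fewer cells carried a transcript or each cell carried less cannot be told apart.

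Since AGO2 is guided by the microRNA, the letters that miR-143-3p could pair with are shown first. The mature sequence from RefSeq (GRCh38.p14, chr5:149428978-149428998, plus strand) has its seed, bases 2 to 8, in capitals.
hsa-miR-143-3p: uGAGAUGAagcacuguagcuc
A match to this seed was searched on the sense strand of 3′ UTRs in 3 forms, an 8mer TCATCTCA, a 7mer-m8 TCATCTC and a 7mer-A1 CATCTCA, counting a stretch once under the longest form. In GENCODE 29 (GRCh38), 7 of the 48 genes (14.6%) held a match in their longest 3′ UTR, against 22.0% of 19046 coding genes. The median 3′ UTR was 373 bases in the proteasome genes and 1088 bases in all. PSME2 held no match in its 3′ UTR of 44 bases. A further 7mer-A1 of PSMB2 and the 8mer of PSMB11 are not shown. The windows below show other matches of genes described later, with the match in capitals, each read 5′ to 3′ on the strand of the gene.
PSMD11 (chr17:32482016-32482044, plus strand): attttcttctcTCATCTCctctttgtctt
PSMD5, first match (chr9:120816782-120816810, minus strand): aatcaggatacCATCTCAttaatttacaa
PSMD5, other match (chr9:120816545-120816573, minus strand): ccccagattgaTCATCTCccctggcaacg
PSME4 (chr2:53865181-53865210, minus strand): tgtcatttcatTCATCTCAaattattttga
PSMB2, 8mer (chr1:35601782-35601811, minus strand): tttcagaatgtTCATCTCAcatttccagtt
PSMF1 (chr20:1168034-1168062, plus strand): gcgtgaagtagCATCTCAttgtggtcttc
PSMA4 (chr15:78551436-78551464, plus strand): tgcccactcccTCATCTCcaggtctctgc

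Some facts of the tables bear on all values. The row of MIR143 was listed at 0 in both control groups and at 44781 and 118393 FPKM in the mock and AGO2 precipitates with miR-143. Erythroid markers known from K562 were present, with medians of 32.0 to 56.5 FPKM over 7 rows in the 4 groups, and 5 markers of lymphoid cells, liver and fibroblasts did not exceed 0.23 FPKM in any group. Of all rows, 8393 to 12937 per group were above 0. Depth is unknown. As a stand-in, the lowest products of FPKM and transcript length (the low edge, which falls with deeper sequencing) were set against miR143_AGO, and they were 12.9 times as high in control_IgG, 1.64 times in miR143_IgG and 1.09 times in control_AGO. Low values of control_IgG are thus the least certain.

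Of the 48 genes, 46 were above 0 in at least 1 group. PSMA8, the α subunit of testis, and PSMB11, the β subunit of the thymus, were listed at 0 throughout. In 7 genes (PSMA1, PSMA2, PSMA6, PSMB9, PSMB10, PSMD9 and PSMF1) the row also joins the names of overlapping genes, so its value is not that of the proteasome gene alone. The 17 rows beyond the first of a gene were those of further copies of 5 names and were at 0 in all groups. Of 31 rows of proteasome pseudogenes, 3 were above 0.

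The activators come first, since PSME2 is one of them. PSME2 (14:24143362-24147570, minus strand) was at 22.3 FPKM in the mock and 61.4 FPKM in the AGO2 precipitate of control cells. In miR-143 cells it was at 113 FPKM in the mock and 1.46 FPKM in the AGO2 precipitate. It was thus lowest in the AGO2 precipitate of miR-143 cells and highest in the mock precipitate of the same cells. Between the AGO2 precipitates the log2 ratio, taken as log2 of (FPKM + 1) over (FPKM + 1), was −4.67, and control_AGO was 42.1 times higher by the plain ratio. The value of 1.46 FPKM lay 37.5 times above the low edge for a transcript of this length in miR143_AGO. Among 9798 rows compared, 26 including PSME2 were lower by as much or more.

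PSME1 encodes the partner with which PSME2 forms the ring-shaped activator, and it lies near PSME2 at 14:24136158-24138967. It was at 32.0, 2.81, 8.76 and 2.07 FPKM in control_IgG, control_AGO, miR143_IgG and miR143_AGO. PSME1 was thus low in both AGO2 precipitates, with a log2 ratio of −0.31 between them. From 2.81 FPKM in control_AGO, with 1 FPKM added, its ratio could not reach that of PSME2. Whether it shared the difference of PSME2 thus cannot be told. PSME3, the nuclear relative that forms a ring of its own, was at 81.3, 12.4, 36.2 and 17.4 FPKM, again in this order. PSME4, which encodes a large single-chain activator and holds the 8mer shown above, was at 10.1, 9.19, 5.81 and 13.2 FPKM. Both were slightly higher in miR143_AGO than in control_AGO, with log2 ratios of 0.46 and 0.48. The row that holds PSMF1, an inhibitor of the core, was at 11.2, 19.1, 14.4 and 10.3 FPKM, a log2 ratio of −0.82 between the AGO2 precipitates.

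**Figure D1:**
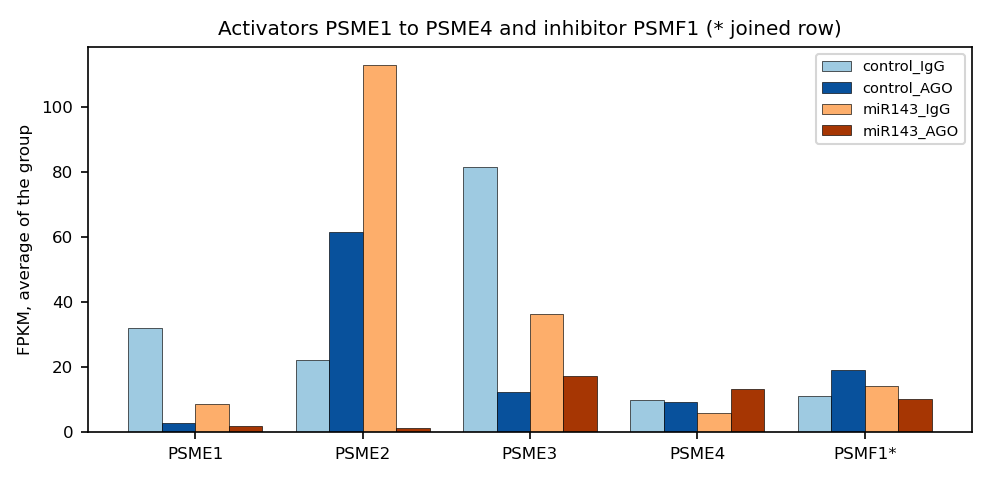
Bars give the average FPKM of each of the 4 groups for the activator genes PSME1 to PSME4 and for the row that holds PSMF1, with no error bars since 1 average per group was deposited. PSME2 is at 61.4 FPKM in control_AGO and 1.46 FPKM in miR143_AGO, while PSME1 is at 2.81 and 2.07 FPKM there.

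The neighbours of PSME2 on chromosome 14 were compared in the same way. The row joining IRF9 and RNF31 was at 0.433, 139, 35.2 and 79.4 FPKM in the order control_IgG, control_AGO, miR143_IgG and miR143_AGO, a log2 ratio of −0.80 between the AGO2 precipitates. The row joining DCAF11 and FITM1 was at 11.7 FPKM in control_AGO and 20.3 FPKM in miR143_AGO, and EMC9 was at 1.34 and 1.71 FPKM. Of 6 rows of the neighbourhood compared, only PSME2, chosen by this same comparison, was at least 2-fold lower, where 14.1% of all rows were. With so few rows, whether the neighbourhood differs from all rows was not tested.

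Over all proteasome genes, the AGO2 precipitates of miR-143 and control cells were then compared. Of 45 genes with 1 FPKM or more in either group, 7 were at least 2-fold lower in miR143_AGO (15.6%), against 14.1% of all rows, and 3 were at least 2-fold higher (6.67%), against 17.7% of all rows. Only PSME2 was at least 10-fold lower, where 0.745% of all rows were, and 0 were at least 10-fold higher (0.286% of all rows). With 1 FPKM added, genes with low values in control_AGO could not be 10-fold lower. With a pseudocount of 0.1 or 0.01, 1 of the 6 cap ATPases was at least 10-fold lower as well. The median log2 ratio was −0.06, with quartiles of −0.69 and 0.48, and that of all rows was 0.17. Where the average over the groups reached 10 FPKM, 5 of 30 genes were at least 2-fold lower (16.7%), against 16.4% of all rows, and 2 were at least 2-fold higher (6.67%), against 8.1%. At 2-fold the numbers of lower genes were near the background, so that a lower value in miR143_AGO was not a trait of the proteasome genes as a set. Whether genes low in control_AGO share the large difference of PSME2 cannot be told.

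After PSME2, the lowest was PSMD11, a lid subunit of the cap, at 60.8 FPKM in control_AGO and 9.0 FPKM in miR143_AGO (log2 ratio −2.63). It was at 11.5 FPKM in control_IgG and 22.6 FPKM in miR143_IgG. Its level in control_AGO was close to that of PSME2, and PSMD11 remained well above PSME2 in miR143_AGO. The row joining PSMA1, of the α ring, with COPB1 went from 39.7 to 11.3 FPKM (−1.73), and the cap ATPase PSMC4 from 24.6 to 8.41 FPKM (−1.44). PSMD6 and PSMD7, further lid subunits, went from 23.1 to 8.80 FPKM (−1.30) and from 5.63 to 1.82 FPKM (−1.23). In the mock precipitates the row of PSMA1 was at 34.8 and 50.6 FPKM in control_IgG and miR143_IgG, PSMC4 at 26.4 and 46.2 FPKM, PSMD6 at 12.5 and 10.9 FPKM, and PSMD7 at 4.33 and 30.4 FPKM. The last of the 7 was PSMC1, another ATPase, at 1.68 FPKM in control_AGO and listed at 0 in miR143_AGO. Ratios of a gene listed at 0 in a group depend on the added 1 FPKM and are no bound.

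**Figure D2:**
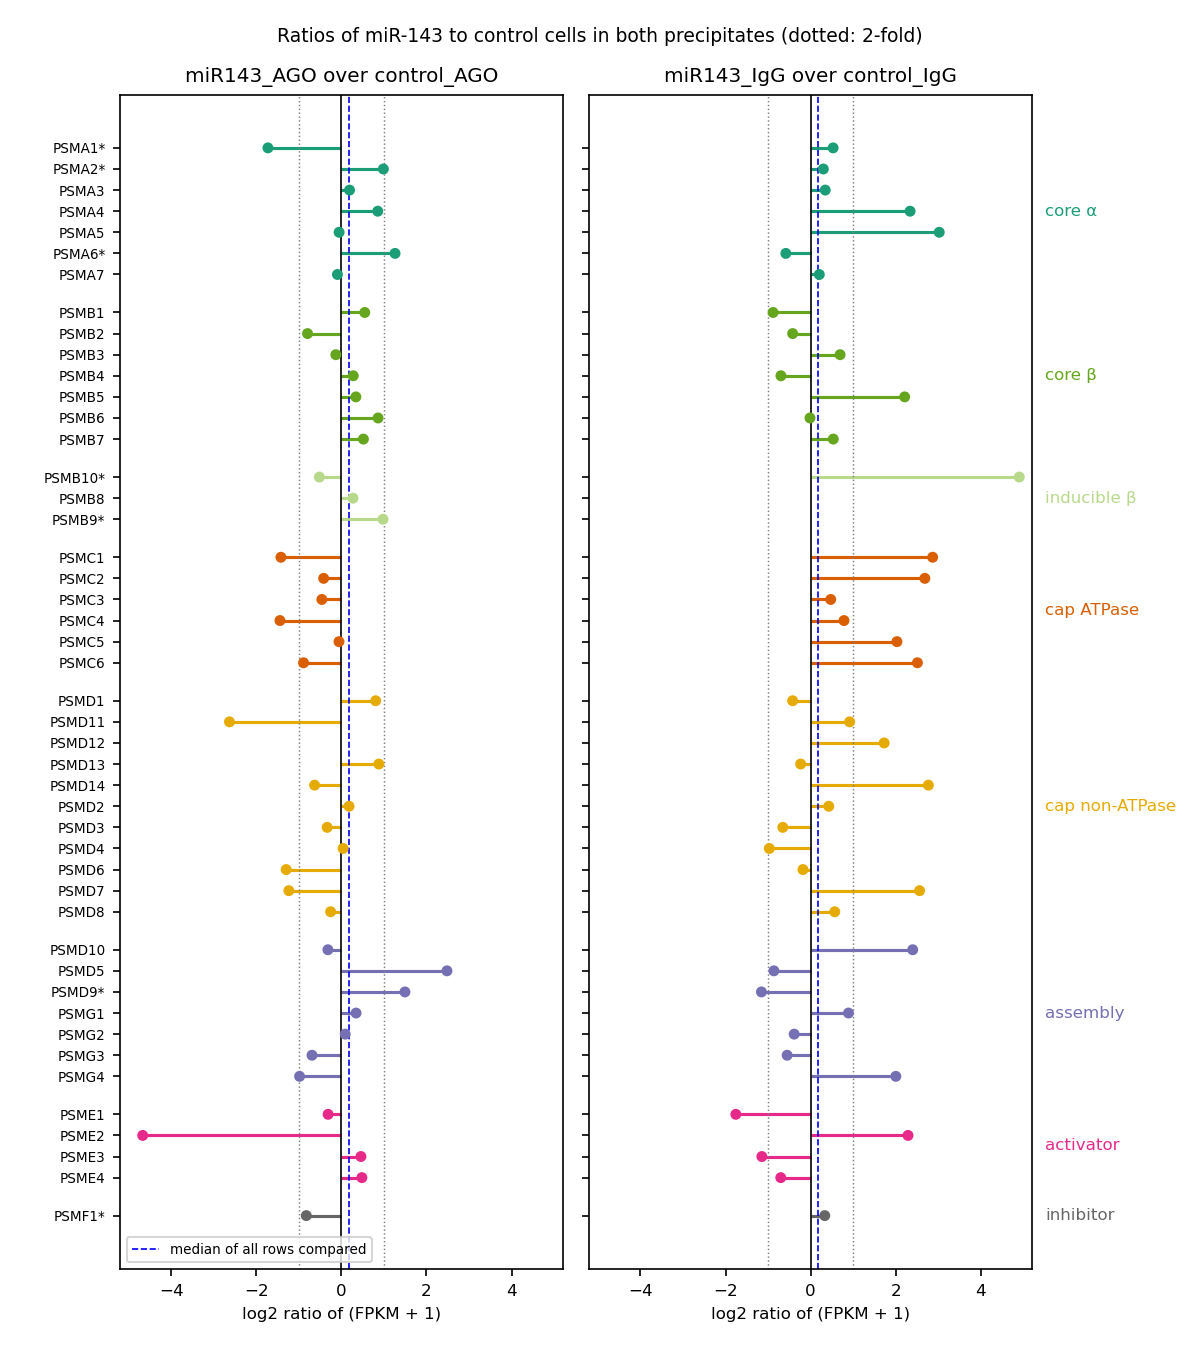
Points give log2 of (FPKM + 1) in miR-143 cells over (FPKM + 1) in control cells for each proteasome gene, left for the AGO2 and right for the mock precipitates, colored by class, with genes under 1 FPKM in both groups left out. PSME2 at −4.67 stands far left of PSMD11 at −2.63 in the left panel, and all 6 cap ATPases lie below 0 on the left (5 with the groups at the same upper quartile) and above 0 on the right.

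Of the genes that were higher in miR143_AGO, 2 encode chaperones of the cap base. In the mock precipitates PSMD5 was at 13.1 FPKM in control and 6.76 FPKM in miR-143 cells. In the AGO2 precipitates it was at 2.85 and 20.5 FPKM, a log2 ratio of 2.48. Its lowest and its highest value thus both came from AGO2 precipitates. PSMD5 holds 2 of the seed matches shown above, and 88 of the 9798 rows were higher by as much or more. Its antisense partner PSMD5-AS1 was at 0.181 FPKM in control_AGO and 3.88 FPKM in miR143_AGO, and whether the counting used strand is not given in the sources used here. The row joining PSMD9 with WDR66 went from 4.92 to 15.7 FPKM (1.49) and the row joining PSMA6 with KIAA0391 from 3.00 to 8.59 FPKM (1.26). Of the 3 genes, only PSMD5 has a row of its own. The next highest rows of 1 name were PSMD13 (3.94 to 8.09 FPKM), PSMB6 (10.8 to 20.4 FPKM), PSMA4 (6.0 to 11.7 FPKM) and PSMD1 (7.79 to 14.4 FPKM), none of which was 2-fold higher on the log2 scale used. In the order control_IgG and miR143_IgG these 4 were at 31.7 and 26.8 FPKM (PSMD13), 36.6 and 36.2 FPKM (PSMB6), 10.4 and 56.5 FPKM (PSMA4), and 23.3 and 17.2 FPKM (PSMD1). PSMD1 encodes a scaffold of the cap base, PSMD13 a lid subunit, PSMB6 a catalytic β subunit and PSMA4 a subunit of the α ring. Nearest to the threshold of 2-fold were the row of PSMA2 (0.99) and PSMG4 (−0.98) outside it and PSMD7 (−1.23) and the row of PSMA6 (1.26) inside it.

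By class, the AGO2 ratio was not of 1 sign except in the cap ATPases. All 6 ATPase genes, whose products form the ring that unfolds substrates, had a log2 ratio below 0, from −0.06 (PSMC5) to −1.44 (PSMC4), with a median of −0.67, whereas with the groups scaled to the same upper quartile 5 of the 6 were below 0, PSMC5 being the exception. PSMC1 and PSMC6 were at 1.68 and 1.92 FPKM in control_AGO, so 2 of the 6 rest on low values. The 10 compared non-ATPase subunits of the cap had a median of −0.29, with 6 below 0 and 3 at least 2-fold lower. Of the 7 genes of the α ring 4 were above 0 and 3 below, with a median of 0.19. The 7 constitutive β genes, which include the catalytic PSMB5, PSMB6 and PSMB7, had a median of 0.34 and ranged from −0.79 (PSMB2) to 0.86 (PSMB6), with none at least 2-fold apart. The 7 assembly genes ranged from −0.98 (PSMG4, 25.3 to 12.3 FPKM) to 2.48 (PSMD5), with a median of 0.09. With the groups scaled to the same median, the medians of the α and the assembly genes were −0.01 and −0.13.

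The genes not named so far exclude those with the largest AGO2 ratios, so small differences between the AGO2 precipitates follow from the choice. Over all rows, too, log2 ratios spread less in the AGO2 than in the mock pair (standard deviations of 1.12 and 1.99). PSMA5, of the α ring, was at 22.2 and 21.4 FPKM in the AGO2 precipitates of control and miR-143 cells and at 5.18 and 49.2 FPKM in the mock precipitates. The catalytic PSMB5 was at 18.9 and 24.2 FPKM with AGO2 and at 8.41 and 42.5 FPKM with IgG. PSMD10, a chaperone of the cap base, was at 8.54 and 6.66 FPKM with AGO2 and at 3.71 and 23.8 FPKM with IgG. All 3 were more than 4-fold higher in miR143_IgG than in control_IgG, and their AGO2 values lay close together. The AGO2 values were 10.9 and 12.5 FPKM for PSMA3, 10.4 and 9.72 FPKM for PSMA7, 10.8 and 16.2 FPKM for PSMB1, 22.0 and 20.04 FPKM for PSMB3, and 23.9 and 27.2 FPKM for PSMD2. These 5 subunits of core and cap differed between the AGO2 precipitates by log2 ratios of −0.13 to 0.55. The core chaperone PSMG3 was at 13.7 and 8.12 FPKM with AGO2 and at 62.9 and 42.6 FPKM with IgG.

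Among the inducible β subunits, PSMB8 was at 3.08 FPKM in control_AGO and 3.93 FPKM in miR143_AGO, and listed at 0 in both mock precipitates. The row joining PSMB9 with PSMB8-AS1 was at 0.390 and 1.74 FPKM in the AGO2 precipitates, and at 0 and 0.0669 FPKM in control_IgG and miR143_IgG. The row joining PSMB10 with CTRL was at 12.6 and 8.52 FPKM in the AGO2 precipitates. In the mock precipitates it was listed at 0 in control and at 28.9 FPKM in miR-143 cells. The 3 rows thus had log2 ratios of 0.27, 0.98 and −0.52 between the AGO2 precipitates. Of the 3, 0 were at least 2-fold lower, where 14.1% of all rows were. With 1 FPKM added, the row of PSMB9, at 0.390 FPKM in control_AGO, could not be 2-fold lower.

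Genes with a seed match stood on both sides. Of the 6 compared genes with a match, PSMD11, PSMB2 (13.3 to 7.23 FPKM) and the row of PSMF1 were lower in miR143_AGO, and PSMD5, PSMA4 and PSME4 were higher. Their median log2 ratio was −0.16, and that of the 39 compared genes without a match was −0.06. Over all coding rows compared, the medians were 0.23 in 1682 with a match and 0.14 in 5166 without. In the mock precipitates, PSMB2 was at 12.1 and 8.75 FPKM in control and miR-143 cells.

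Genes that serve the proteasome without matching the name pattern were taken from a list of 28. Of 25 compared between the AGO2 precipitates, 2 were at least 2-fold lower, the cap chaperone PAAF1 (4.50 to 0.756 FPKM) and NPLOC4 (140 to 44.2 FPKM), which works with the unfolding ATPase VCP, where 14.1% of all rows were. The 3 at least 2-fold higher were SHFM1, a small cap subunit now called SEM1 (2.03 to 11.3 FPKM), the cap deubiquitinase UCHL5 (0.0342 to 3.54 FPKM) and the shuttle factor UBQLN2 (0.488 to 2.06 FPKM), where 17.7% of all rows were. The median log2 ratio was 0.03, and ADRM1, a ubiquitin receptor of the cap, was at 28.1 and 16.1 FPKM. POMP, the main maturation factor of the core, was at 0.934 and 0.186 FPKM and thus too low to be compared. Of the 25 genes, 0 were at least 10-fold lower, where 0.745% of all rows were. The median of the 28 genes in control_AGO was 4.75 FPKM, and with 1 FPKM added, genes at or below that level could not be 10-fold lower.

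To ask whether the same differences stood in the absence of AGO2 antibody, the mock precipitates were compared. Of 44 genes, 14 were at least 2-fold higher in miR143_IgG than in control_IgG (31.8%), against 36.2% of all rows, and 3 were at least 2-fold lower (6.82%), against 26.8% of all rows. The median log2 ratio was 0.45, against 0.17 for all rows. PSME2 was among the higher genes (log2 ratio 2.29, a plain ratio of 5.06), in the opposite direction to the AGO2 precipitates. PSME1 and PSME3 were among the 3 lower genes, at −1.76 and −1.15, so that the activators went apart here as well. The row of PSMB10 was the only one at least 10-fold higher (5.71% of all rows), from 0 to 28.9 FPKM, and 0 were at least 10-fold lower (3.16% of all rows). For PSMB10, the low edge of control_IgG corresponds to 0.579 FPKM.

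All 6 cap ATPase genes were higher in miR143_IgG, with a median log2 ratio of 2.27 and 4 at least 2-fold higher, and this held with the groups scaled to the same median or upper quartile. PSMC2, for example, was at 2.00 FPKM in control_IgG and 18.3 FPKM in miR143_IgG, and PSMC5 at 3.33 and 16.7 FPKM. In control_IgG these values lay 8.67 and 7.06 times above the low edge. PSMC3 and PSMC4, at 68.4 and 26.4 FPKM there, had log2 ratios of only 0.47 and 0.78. The size of the class median thus rests on genes with low values in control_IgG. Of the 6, PSMC1 and PSMC6 were listed at 0 in control_IgG, while a row of the pseudogene PSMC1P1 was at 8.98 FPKM there, and how reads of such copies were shared between the rows was not tested. Further genes listed at 0 in control_IgG were PSMB8, PSMB9, PSMB10, PSMD12 and PSMD14, 7 in all. PSMD12 and PSMD14, the latter the deubiquitinase of the cap, were at 0.247 and 1.5 FPKM in control_AGO, 2.31 and 5.80 FPKM in miR143_IgG, and 0.75 and 0.614 FPKM in miR143_AGO. In miR-143 cells PSMC6 was at 4.69 FPKM with IgG and 0.580 FPKM with AGO2, and PSMC1 was at 6.29 FPKM with IgG. Across the 46 genes, log2 ratios of the AGO2 pair and of the mock pair, which share no library, were correlated at −0.387 (Pearson) and −0.461 (Spearman), or −0.363 and −0.443 without PSME2. This is a description across genes that share libraries and depth.

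**Figure D3:**
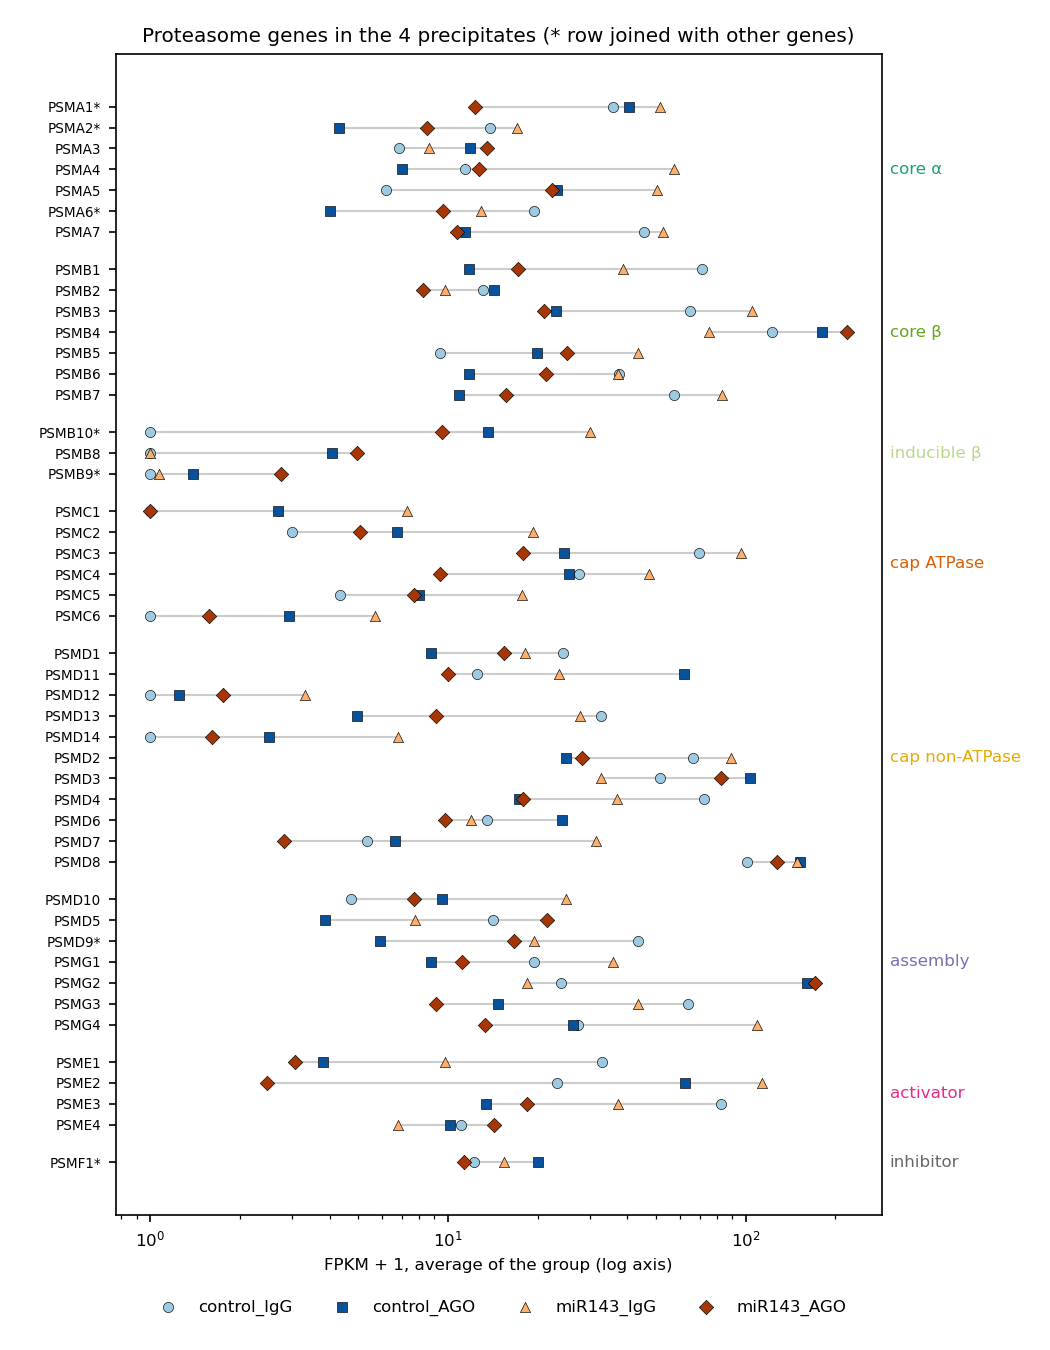
Symbols give the average FPKM + 1 in each of the 4 groups, on a log axis, for the 46 proteasome genes above 0 in any group, ordered by class, and a gray line spans the range of each gene. PSMB4, PSMG2, PSMD8 and PSMD3 have the highest AGO2 values, and PSME2 has a range from 1.46 to 113 FPKM.

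Enrichment over the mock precipitate was then described within each population. In control cells, 13 of 44 genes were at least 2-fold higher in AGO2 than in IgG (29.5%), against 34.5% of all rows, and 18 were at least 2-fold lower (40.9%), against 36.2% of all rows. Only the row of PSMB10 was at least 10-fold higher there (4.38% of all rows), and 0 were at least 10-fold lower (4.98% of all rows). In miR-143 cells, 7 of 46 were higher (15.2%), against 26.6% of all rows, and 28 were lower (60.9%), against 33.5% of all rows. The split in control cells depended on scaling, with 19 higher (43.2%) and 13 lower genes (29.5%) once the groups had the same median, against 41.0% and 27.2% of all rows. In miR-143 cells the lower genes numbered 25 with the same median and 21 with the same upper quartile, against 30.9% and 27.6% of all rows. The median log2 ratio in miR-143 cells was −1.19, against −0.22 for all rows. Above a mean of 10 FPKM, 24 of 36 genes (66.7%) and 42.6% of all rows were at least 2-fold lower.

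The genes below mock level in miR-143 cells came from each class with more than 1 gene. All 6 cap ATPases were at least 2-fold lower in miR143_AGO than in miR143_IgG, with a median log2 ratio of −2.13 (5 of 6 with the same upper quartile). PSMC3, the most abundant of them, was at 95.2 FPKM in miR143_IgG and 16.9 FPKM in miR143_AGO. In control cells it was at 68.4 FPKM in the mock and 23.6 FPKM in the AGO2 precipitate. PSMC1, PSMC2 and PSMC6 were at least 2-fold higher in AGO2 in control cells, where 34.5% of all rows were. In control_IgG, PSMC1 and PSMC6 were listed at 0 and PSMC2 was at 2.00 FPKM, so these ratios rest on low values. Only PSME2 (log2 ratio −5.53, a plain ratio of 77.2) and PSMD7 (−3.48) were at least 10-fold lower in miR-143 cells, where 3.67% of all rows were, and 0 were at least 10-fold higher (1.6% of all rows). The ratio of PSME2 reuses the miR143_AGO value by which it was chosen. In the same comparison 5 of 7 α genes, 3 of 7 constitutive β genes, 6 of 11 non-ATPase cap genes, 4 of 7 assembly genes and 3 of 4 activators were at least 2-fold lower.

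With the values as deposited, 13 of the 44 genes compared in both populations were at least 2-fold below the mock precipitate in both (29.5%), against 16.4% of all rows. The number was 6 (13.6%, against 12.2% of all rows) with the same median and 7 (15.9%, against 11.9%) with the same upper quartile, and thus nearer to the background. The 13 were the α genes PSMA2 and PSMA7, the β genes PSMB1, PSMB3 and PSMB7, the ATPase PSMC3, the cap genes PSMD2, PSMD4 and PSMD13, the core chaperones PSMG1 and PSMG3, and the activators PSME1 and PSME3. PSMB7, for example, was at 56.5 FPKM in the mock and 9.90 FPKM in the AGO2 precipitate of control cells, and at 82.1 and 14.6 FPKM in miR-143 cells. Its log2 ratios of −2.40 and −2.41 were nearly equal in the 2 populations. PSMD4, a ubiquitin receptor of the cap, was at 71.5 and 16.3 FPKM in control cells and at 36.0 and 16.8 FPKM in miR-143 cells.

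With the values as deposited, only PSMG2, PSMD3 and PSMB8 were at least 2-fold above the mock precipitate in both populations (6.82% of 44, against 15.0% of all rows). With the same upper quartile PSMA3 and PSMB4 joined them, which made 5 (11.4%, against 19.8%). PSMG2, which encodes a chaperone of the α ring, was at 23.0 FPKM in the mock and 160 FPKM in the AGO2 precipitate of control cells, and at 17.4 and 170 FPKM in miR-143 cells. Its log2 ratios of AGO2 over IgG were 2.74 in control and 3.22 in miR-143 cells, so that it was enriched over IgG in both populations. Its partner PSMG1 was at 18.4 and 7.78 FPKM in control and at 35.0 and 10.2 FPKM in miR-143 cells and was thus lower in AGO2 in both populations. In the same order, PSMD3, a lid subunit, was at 50.4, 103, 31.6 and 81.3 FPKM. PSMB4, a β subunit without a cleaving site, was at 121, 180, 74.3 and 218 FPKM, with log2 ratios of 0.56 and 1.54. Across the 46 genes the log2 ratios of both populations were correlated at 0.144 (Pearson) and 0.0792 (Spearman), again a description across genes.

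**Figure D4:**
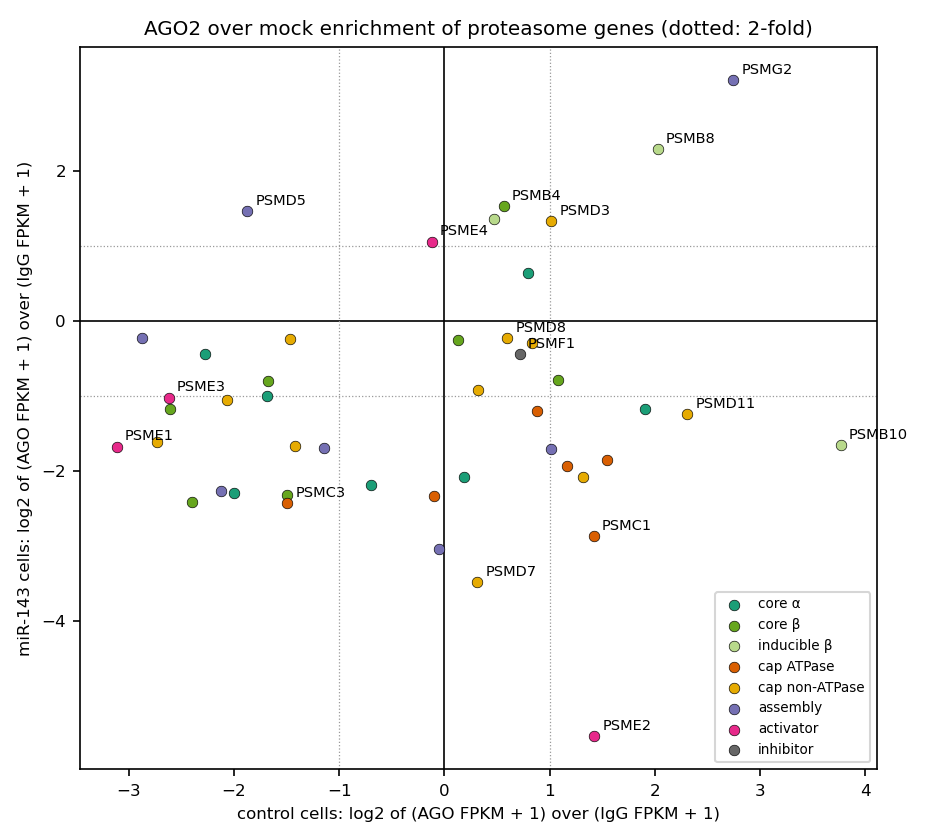
Each point is 1 of the 46 proteasome genes, with log2 of (FPKM + 1) in AGO2 over (FPKM + 1) in IgG for control cells on the horizontal and for miR-143 cells on the vertical axis, colored by class, and dotted lines at 2-fold. PSMG2 lies at 2.74 and 3.22 in the upper right, and PSME2 at 1.42 and −5.53 in the lower right.

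The make-up of the proteasome signal was then described. The 4 highest genes were PSMB4, PSMG2, PSMD8 and PSMD3 in both AGO2 groups, and they were picked after the values had been seen. They made up 50.9% of the summed FPKM of the proteasome genes in control_AGO and 57.5% in miR143_AGO, and 22.3% in control_IgG and 16.0% in miR143_IgG, where the choice made a lower share likely. The 4 highest genes of each mock group itself made up 28.3% (PSMB4, PSMD8, PSME3 and PSMD4 in control_IgG) and 27.9% (PSMD8, PSME2, PSMG4 and PSMB3 in miR143_IgG). PSMD8, a lid subunit, was high in each group, at 99.8, 151, 148 and 127 FPKM in the order control_IgG, control_AGO, miR143_IgG and miR143_AGO. PSMG2 accounted for 13.7% and 16.4% in the AGO2 groups and for less than 2% in each mock group. PSME2 made up 5.27% in control_AGO and 0.141% in miR143_AGO, and it ranked 5th and 42nd among the proteasome genes there. The summed FPKM was 1318 and 1695 in the mock and 1166 and 1038 in the AGO2 precipitates of control and miR-143 cells. As a share of all FPKM it was, in the same order, 0.0466% and 0.0653%, and 0.316% and 0.252%. Over coding rows of 1 name the share was 0.536% and 0.715%, and 0.699% and 0.636%. The order of the groups thus depends on what the sum is set against.

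**Figure D5:**
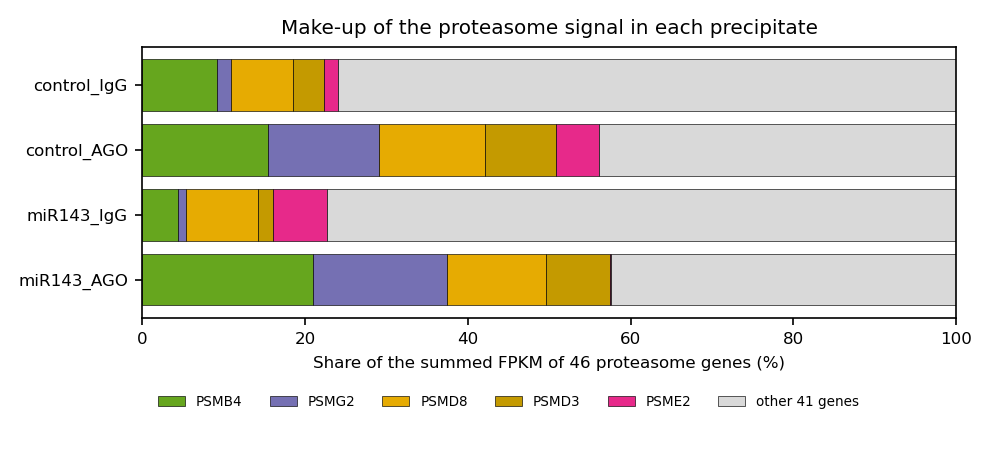
Bars give the share in percent of the summed FPKM of 46 proteasome genes that falls to PSMB4, PSMG2, PSMD8, PSMD3, PSME2 and the other 41 genes in each group. The first 4, chosen as the highest of the AGO2 precipitates, take 50.9% and 57.5% there and 22.3% and 16.0% in the mock precipitates.

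Finally, the ratio of AGO2 over IgG in miR-143 cells was divided by that in control cells, so that each value rests on all 4 groups. Of 46 genes, 10 had an at least 2-fold higher ratio (21.7%), against 29.0% of all rows, and 19 an at least 2-fold lower one (41.3%), against 33.5% of all rows. The lower genes included 5 of the 6 cap ATPases, whose median log2 value was −2.66, against −0.09 for all rows. This median also rests in part on the low values of ATPases in control_IgG described above. At least 10-fold lower were 7 genes, where 6.05% of all rows were, and these were PSME2 (−6.95), PSMB10 (−5.42), PSMC1 (−4.29), PSMD7 (−3.79), PSMD11 (−3.54), PSMC6 (−3.40) and PSMD14 (−3.39). Of these, PSMB10, PSMC1, PSMC6 and PSMD14 were listed at 0 in control_IgG, the group with the highest low edge. PSME2 was chosen by its AGO2 values, which this ratio reuses. Only PSMD5 was at least 10-fold higher (3.34), where 4.29% of all rows were. The other 3 activators were each at least 2-fold higher, at 1.44 (PSME1), 1.61 (PSME3) and 1.18 (PSME4), on the opposite side to PSME2, and with the same median 1 of the 3 remained 2-fold higher.

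The rows most like PSME2 over the 4 groups, by the Euclidean distance of log2(FPKM + 1) among 3185 abundant rows of 1 name (10 FPKM or more on average), were APLP2, BIRC2, TXN, TRA2B and NDUFA5, at distances of 1.83 to 2.19. APLP2 was at 15.9, 40.1, 41.6 and 3.50 FPKM in control_IgG, control_AGO, miR143_IgG and miR143_AGO, and NDUFA5 at 11.6, 28.1, 34.7 and 1.25 FPKM. Of the proteasome genes, the nearest were PSMC4, PSMG4 and PSMD11, at 2.66, 2.75 and 3.17. These distances come from searches of unequal size and are a description.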

How the data were processed

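The authors made the values with TopHat and Cufflinks, against hg38 per the labels, and deposited 4 tables with 1 average FPKM per gene row for each group of 3 samples. The program versions and the annotation are not given in the sources used here. The labels name rRNA removal and paired-end sequencing, and the study names a TruSeq kit. Depth per sample is unknown. FPKM is scaled to the library, so a few abundant RNAs lower all other values.

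The design had foreseen tests on samples, which averages do not allow. Alternatives were smaller pseudocounts, other filters, a common median or upper quartile of the groups, and omission of joined rows or PSME2. Ratios were log2 of (FPKM + 1) over (FPKM + 1), which understates changes of low genes, over rows with 1 FPKM or more in at least 1 group compared. Genes were counted as differing at 2-fold and 10-fold and set beside all rows. The code was tested on simulated data (Python 3.11.15, pandas 2.3.3).

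Low edges are the 10th lowest product of FPKM and transcript length over genes with 1 transcript. Lengths, 3′ UTRs (longest of the complete basic coding transcripts) and coordinates came from GENCODE 29, matched by symbol for all 48 genes. Named are the activators, PSMF1, the inducible β genes, genes listed at 0 in a group, and the 5 highest and 5 lowest AGO2 ratios of rows of 1 name. Any further gene was picked with its values in view. Members and lists were chosen with earlier results of these data known. The result of a list of genes induced by interferon is not reported here.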

Additional observations from a re-analysis of the deposited data

Results flagged for a closer look

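For 10 genes the averages of AGO2 over IgG pointed in opposite directions in the 2 cell populations, at least 2-fold each way. These were 22.7% of the 44 genes compared in both, against 10.2% of all rows. With the same upper quartile 8 genes remained (18.2%, against 9.33%), without PSMA5 and PSMD11. The difference was not tested, since only averages were deposited, and values of single samples were not analysed here. Higher in AGO2 in control cells and lower in miR-143 cells were PSME2, with an IgG-corrected log2 ratio of −6.95, PSMB10 (−5.42), PSMC1 (−4.29), PSMD11 (−3.54), PSMC6 (−3.40), PSMD14 (−3.39), PSMC2 (−3.10), PSMA5 (−3.07) and PSMD10 (−2.71). PSMD5 went the other way (3.34). Of these 10 genes, PSMB10, PSMC1, PSMC6 and PSMD14 were listed at 0 in control_IgG, whose low edge was 12.9 times that of miR143_AGO, and the part of depth in these values was not tested. PSME2 was at 22.3 FPKM in control_IgG, 44.4 times above the low edge for its length. The AGO2 values by which PSME2 was chosen enter this comparison as well.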

How the results depend on the processing

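No paired analysis was possible because each table gives a single averaged column without replicates, which is also why no replicate could be left out. Changing the pseudocount, the filter or the scaling, or leaving out joined rows or PSME2, kept 107 of 120 medians and counts within 1.5 times. In the AGO2 pair, the 3 genes at least 2-fold higher became 6 with a pseudocount of 0.1 or 0.01, 5 with the same upper quartile and 1 without joined rows, and the 7 lower genes became 11 with the same median. Over all rows the higher share went from 17.7% to 24.6% and 25.4% with these pseudocounts, and the lower share from 14.1% to 17.5% with the same median. In the IgG pair, the 14 higher genes became 9 with a mean of at least 10 FPKM, and the 3 lower ones 1 with the same median or upper quartile. For AGO2 over IgG, a mean of at least 10 FPKM left 6 higher genes in control cells (13 before) and 4 in miR-143 cells (7 before). The median log2 ratio in control cells went from 0.04 to −1.28 with that filter, where that of all rows was −0.71. With the same median the value for the genes was 0.67. In the IgG-corrected ratio, 4 genes instead of 10 were higher with the same median (8.7%, against 23.4% of all rows). The cause was not tested. Scaling to the same median moved the median of all rows from 0.17 to −0.01 in the AGO2 pair and from −0.19 to 0.37 for AGO2 over IgG in control cells. The PSME2 ratio between the AGO2 precipitates was −5.30 and −5.39 with the smaller pseudocounts. Among ratios of single genes that were 2-fold under any of these settings, only the IgG-corrected one of PSMB9 changed sign, from 0.89 to 1.17 with a pseudocount of 0.1 and −0.81 with 0.01. Unknown depth limits the low values, most of all in control_IgG.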
